A study of Mus musculus with 12 samples.

Results

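The gasdermins are 7 genes, Gsdma, Gsdmc, Gsdmc2, Gsdmc3, Gsdmc4, Gsdmd and Gsdme, taken by symbol from the 38924 Ensembl genes listed for every mouse. All 7 had reads in every mouse and passed the filter on low counts, which left 20311 genes for testing. RNA-Seq had been carried out on total RNA from the proximal colonic mucosa of 12 mice, 6 of the APC Min/+ genotype and 6 WT. All were C57BL/6 animals of 6 weeks, described in the study's methods as female. The APC Min/+ mice carried 1 germline copy of Apc with the Min mutation, which truncates the protein, and 1 normal copy. The WT mice carried no Min allele, and the labels name no treatment for either genotype. The comparison addressed which genes differ by genotype in this tissue at this age. Each library was 1 mouse, and the genotypes were housed in different cages, so that genotype and cage cannot be told apart.

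Gasdermins are cytosolic proteins whose amino-terminal part, once cut free by a protease, inserts into the plasma membrane and forms a pore. The pore lets out cytokines of the interleukin-1 family and can end in pyroptosis, a lytic form of cell death. Gsdmd is cut by the inflammatory caspases Casp1 and Casp4. The Gsdmc genes are a tandem cluster that expanded in the mouse and is known for its expression in the epithelium of the large intestine. Type 2 cytokines are known to raise Gsdmc genes in the intestinal epithelium. Gsdma is known mainly from skin and other stratified squamous epithelium.

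The members lie on 3 chromosomes (GENCODE M21 annotation, GRCm38). Gsdmc (ENSMUSG00000079025.2) occupies chromosome 15 from 63775968 to 63808759, Gsdmc2 (ENSMUSG00000056293.6) from 63824346 to 63845177, Gsdmc3 (ENSMUSG00000055827.7) from 63857724 to 63878558 and Gsdmc4 (ENSMUSG00000055748.6) from 63891264 to 63912297, all on the reverse strand. The transcribed pseudogenes Gsdmcl1 and Gsdmcl2 lie between them on the forward strand. Gsdmd (ENSMUSG00000022575.4) is on the same chromosome from 75862327 to 75867408, forward strand. Gsdma (ENSMUSG00000017204.4) is on chromosome 11 from 98664351 to 98677708, forward strand, and Gsdme (ENSMUSG00000029821.9) on chromosome 6 from 50188888 to 50263862, reverse strand.

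The coding sequences show how close the clustered genes are, which sets how well 100-base reads can tell them apart. Gsdmc2 and Gsdmc3 were identical at 1401 of 1443 aligned coding bases (97.1%), and each was 93.0% identical to Gsdmc4, whereas Gsdmc was 82.8 to 83.8% identical to these 3. Pairs drawn from different subfamilies were 46.6 to 52.0% identical. The first 90 coding bases are given below in lower case, with capitals where a gene differs from Gsdmc2. They differ at 1 base in Gsdmc3, 2 in Gsdmc4 and 11 in Gsdmc.
Gsdmc2: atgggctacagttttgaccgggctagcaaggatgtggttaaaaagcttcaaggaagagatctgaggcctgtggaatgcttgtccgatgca
Gsdmc3: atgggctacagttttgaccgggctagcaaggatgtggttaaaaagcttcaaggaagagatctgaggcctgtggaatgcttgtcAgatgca
Gsdmc4: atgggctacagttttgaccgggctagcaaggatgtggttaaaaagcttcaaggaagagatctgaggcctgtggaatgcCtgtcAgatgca
Gsdmc: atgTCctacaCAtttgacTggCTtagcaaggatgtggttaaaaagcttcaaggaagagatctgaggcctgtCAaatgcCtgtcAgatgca

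Windows of the same length that began at a codon were ranked by the differences between Gsdmc2 and Gsdmc3 alone. Among those without a gap in Gsdmc2, Gsdmc3 or Gsdmc4, the highest-ranked window is shown next with the same use of capitals. It starts at coding base 775 of Gsdmc2 and Gsdmc3 and 781 of Gsdmc4, with 13 differences from Gsdmc2 in Gsdmc3 and 17 in Gsdmc4.
Gsdmc2: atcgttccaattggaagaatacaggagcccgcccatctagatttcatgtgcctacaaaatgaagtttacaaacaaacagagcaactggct
Gsdmc3: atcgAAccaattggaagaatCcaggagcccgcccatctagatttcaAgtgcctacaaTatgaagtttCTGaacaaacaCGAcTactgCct
Gsdmc4: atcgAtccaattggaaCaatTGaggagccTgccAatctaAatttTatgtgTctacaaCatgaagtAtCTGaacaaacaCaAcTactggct

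Of all 100-base stretches of its GENCODE M21 transcripts, Gsdmc2 shared 28.6% exactly with another gene, Gsdmc3 28.4%, Gsdmc4 20.2%, Gsdmc 7.03% and Gsdma 1.83%. For Gsdmd and Gsdme no such stretch was shared. The deposited gene lengths were 1981 bases for Gsdmc2, 1443 for Gsdmc3, 1988 for Gsdmc4 and 7375 for Gsdme. That of Gsdmc3 equals its coding length alone, and Gsdme has 12742 exonic bases in GENCODE M21. The regions counted thus differed from these transcripts, and sharing within the counted regions was not computed. CPM ratios of Gsdmc3 to its paralogs, given further on, are not per length. The treatment of reads that match several genes is not given in the sources used here, so the split of reads among Gsdmc2, Gsdmc3 and Gsdmc4 is uncertain to that extent. Gsdme overlapped another gene, Mpp6 on the opposite strand, along 10052 bases, of which 0 were exonic in both genes in GENCODE M21. Mpp6 was at 23.3, 26.2 and 28.4 CPM in mice M10_2, M13_1 and M17_1 and at 175 to 420 CPM in the other 9, and its part in the Gsdme counts was not tested.

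RefSeq promoters (GRCm38.p6) were available for 2 of the 7 members, and they are shown because Gsdmc3 and Gsdme moved in opposite directions in the same mice, as described further on. The 250 bases before the start of Gsdmc3, chr15:63878559-63878808 on the reverse strand, contain 47.6% G and C, 1 CpG and the letters TATATAA, in capitals, 29 bases before the start. Those letters occurred on either strand of 3.04% of 32851 promoters of that length. The promoter of Gsdme, chr6:50261770-50262019 on the reverse strand, contains 64.0% G and C and 15 CpG. It precedes the RefSeq start and lies inside the gene as annotated in GENCODE M21, whose outermost start is at 50263862. The bases before that outer start were not examined.
Gsdmc3: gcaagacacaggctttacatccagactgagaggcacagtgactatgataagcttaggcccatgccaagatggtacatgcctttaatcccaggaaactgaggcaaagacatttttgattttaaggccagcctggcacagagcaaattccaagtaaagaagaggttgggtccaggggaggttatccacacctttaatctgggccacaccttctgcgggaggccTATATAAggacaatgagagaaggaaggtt
Gsdme: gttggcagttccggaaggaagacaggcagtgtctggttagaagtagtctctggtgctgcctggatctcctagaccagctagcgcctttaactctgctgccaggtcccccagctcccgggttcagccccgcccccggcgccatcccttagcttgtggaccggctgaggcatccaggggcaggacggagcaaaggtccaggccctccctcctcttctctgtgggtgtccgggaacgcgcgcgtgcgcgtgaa

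None of 4 further motifs, sought on both strands, was found in either promoter. They were the Hoxb13-type words CCAATAAA (in 1.02% of all promoters) and CTCGTAAA (0.110%), the STAT6-type TTC and GAA with 4 bases of any kind between them (5.85%), and the interferon regulatory factor type GAAA and GAAA with 2 bases of any kind between them (2.98%).

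Total counts per mouse ranged from 50313805 to 197914821, so that 3 counts corresponded to between 0.0152 and 0.0596 CPM (counts scaled to the library size and its TMM factor). The 7 epithelial markers summed to 7359 CPM or more in every mouse. The 5 smooth muscle markers (Myh11, Actg2, Des, Cnn1 and Acta2) summed to 3773 to 5722 CPM in APC Min/+ and 3960 to 5062 CPM in WT mice. The samples are labelled mucosa, while the study's methods describe sections of the proximal colon and mention no removal of muscle. Of the 5 markers, Actg2, Des and Cnn1 were higher in APC Min/+ mice at an unadjusted p under 0.05, and their part in the results was not tested. Leukocyte markers summed to 61.3 to 113 CPM. The libraries of 2 APC Min/+ mice, M10_2 and M13_1, stood apart. Hoxb13, a homeobox gene of the distal hindgut, was at 378 and 275 CPM in them and at no more than 0.744 CPM in the other 10 mice, of which 4 had no count. Hoxa13 was at 76.6 and 61.8 CPM in this pair against 0.921 to 2.75 CPM, Hoxd13 at 12.4 and 209 CPM against 0.0553 to 0.533 CPM, and Hoxc13 was at 0 in all 12. The summed absorptive colonocyte markers were at 4145 and 6160 CPM in the pair and at 17131 CPM or more in the rest. Car1 (966 and 2540 CPM against 14622 CPM or more) made up most of that difference. Of the other 4 markers, Guca2a was also below the rest (315 and 185 against 1155 to 1786 CPM), Car4 was above it (924 and 953 against 241 to 582 CPM), Aqp8 was within its range, and Slc26a3 was within it in M10_2 and above it in M13_1. A WT mouse, M17_1, also stood apart. Aqp8, a water channel of surface colonocytes, was at 4.80 CPM there, and M17_1 was the lowest of 12 for 26.9% and the highest for 20.8% of the 14898 genes with a mean of at least 1 CPM. Values without the pair, without M17_1 or without all 3 are therefore given beside several results that moved with them.

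The 7 members covered a wide range of levels. Per length, in RPKM (the scaled count divided by gene length, mean ± SD, n = 12), Gsdmc4 was at 633 ± 237 and Gsdmc2 at 458 ± 191, which placed them 62nd and 95th of all genes. Gsdmc3 followed at 119 ± 41.4 RPKM, Gsdmd at 63.1 ± 11.8 RPKM, Gsdmc at 6.03 ± 2.49 RPKM, Gsdme at 3.48 ± 1.64 RPKM and Gsdma at 0.775 ± 0.153 RPKM. The order of neighbours in RPKM held in 11 of 12 mice for Gsdmc4 over Gsdmc2, with M17_1 as the exception, and in 12 of 12 for Gsdmc2 over Gsdmc3. Gsdmc3 exceeded Gsdmd in 11 of 12 mice, but their ranges overlapped, and Gsdmc exceeded Gsdme in 9 of 12. Gsdmd and Gsdmc, at 52.8 to 84.7 and 1.33 to 11.4 RPKM, was the single neighbouring pair whose ranges did not overlap. Among the rest of the family, Gsdma2 and Gsdma3 reached at most 0.0946 and 0.0331 CPM, Pjvk 0.102 CPM, and the pseudogenes Gsdmcl1 and Gsdmcl2 0.0577 and 0.115 CPM. None of these 5 passed the filter.

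**Figure D1:**
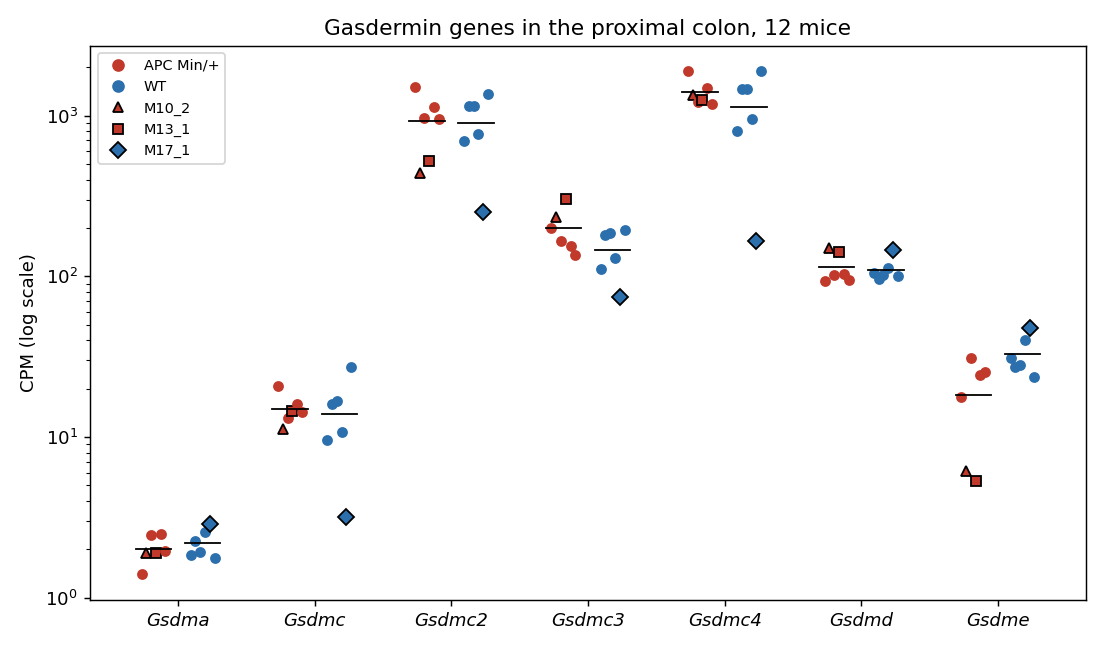
CPM (log scale) of the 7 gasdermins in each mouse, APC Min/+ in red and WT in blue, with the mean of each group as a black line and M10_2, M13_1 and M17_1 as outlined symbols. The genotypes overlap for every gene, M17_1 is lowest for the 4 Gsdmc genes, and M10_2 and M13_1 are highest for Gsdmc3 and lowest for Gsdme.

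By genotype, 0 of the 7 gasdermins were called (FDR under 0.05 and at least a 2-fold change) in edgeR's quasi-likelihood test, where the background was 0.0% of 20311 genes. At an unadjusted p under 0.05 there were 0 of 7, against 5.27% of all genes. DESeq2 called 0 of the 7 and 0.133% of all genes, and edgeR's exact test called 0 and 0.0492%. The ranges of the genotypes overlapped for all 7, while 0.118% of the genes tested had ranges that did not. The median log2 fold change of the 7 was 0.055, against -0.0077 for all genes tested. Without M10_2 and M13_1 the test again called 0 of 7 and 0.0% of 19978 genes, with 1.59% at an unadjusted p under 0.05. A p above the threshold does not show that the genotypes were alike, and the standard errors below give the precision.

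Gsdme had the largest genotype difference of the 7. The APC Min/+ mice were at 17.8 (M8_2), 6.11 (M10_2), 31.2 (M18_2b), 5.30 (M13_1), 24.5 (M2_A) and 25.4 (M20_1) CPM. The WT mice were at 31.1 (M17_2), 27.3 (M19_1), 27.9 (M16_1), 39.9 (M18_2a), 47.6 (M17_1) and 23.8 (M18_b) CPM. M10_2 and M13_1 were the lowest mice by a wide margin, and 3 of the other 4 APC Min/+ mice lay within the WT range. The means were 18.4 ± 10.7 CPM in APC Min/+ and 32.9 ± 9.03 CPM in WT mice (SD, n = 6 each). The log2 fold change was -0.84 (SE 0.39, FDR = 0.908 in edgeR's quasi-likelihood test, unadjusted p = 0.0507). Without M10_2 and M13_1 it was -0.42 (SE 0.21, FDR = 0.9999), and without M17_1 as well it was -0.28 (SE 0.18).

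Gsdmc3 was next in size and of the opposite sign. The APC Min/+ mice were at 199 (M8_2), 233 (M10_2), 165 (M18_2b), 304 (M13_1), 153 (M2_A) and 136 (M20_1) CPM. The WT mice were at 111 (M17_2), 181 (M19_1), 187 (M16_1), 131 (M18_2a), 74.6 (M17_1) and 193 (M18_b) CPM. M13_1 and M10_2 were the 2 highest mice, and the other 4 APC Min/+ mice overlapped WT. The means were 198 ± 62.3 CPM in APC Min/+ and 146 ± 48.3 CPM in WT mice (SD, n = 6 each), a log2 fold change of 0.44 (SE 0.25, FDR = 0.908), and 0.16 (SE 0.24, FDR = 0.9999) without M10_2 and M13_1. It was 0.025 (SE 0.18) without M17_1 as well.

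Gsdmc4, the most abundant member, was at 1886 (M8_2), 1337 (M10_2), 1208 (M18_2b), 1259 (M13_1), 1480 (M2_A) and 1189 (M20_1) CPM in the APC Min/+ group. The WT values were 799 (M17_2), 1462 (M19_1), 1468 (M16_1), 953 (M18_2a), 167 (M17_1) and 1891 (M18_b) CPM. The WT mice spanned the whole APC Min/+ range and reached well below it in M17_1. The means were 1393 ± 264 CPM and 1123 ± 612 CPM (SD, n = 6 each). The log2 fold change was 0.31 (SE 0.40, FDR = 0.911). It was 0.078 without M17_1 and 0.13 (SE 0.24) without all 3 mice.

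Gsdmc2 was at 1497 (M8_2), 440 (M10_2), 964 (M18_2b), 524 (M13_1), 1133 (M2_A) and 955 (M20_1) CPM in the APC Min/+ group. The WT values were 690 (M17_2), 1147 (M19_1), 1148 (M16_1), 770 (M18_2a), 252 (M17_1) and 1355 (M18_b) CPM. The 3 lowest mice were M17_1, M10_2 and M13_1, so both genotypes had low animals. The log2 fold change of 0.040 (SE 0.37, FDR = 0.986) was smaller than its standard error and was -0.16 without M17_1 and 0.35 (SE 0.35, FDR = 0.9999) without M10_2 and M13_1. Gsdmc, the least abundant gene of the cluster, ranged from 11.2 to 20.7 CPM with a median of 14.4 in APC Min/+ mice and from 3.19 to 27.4 CPM with a median of 13.4 in WT mice. For Gsdmc, the genotypes differed by a log2 fold change of 0.10 (SE 0.36, FDR = 0.964). It was 0.20 (SE 0.42) without the pair and -0.11 without M17_1.

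Gsdmd, the gasdermin of the inflammasome pathway, was the least variable of the more abundant members. It ranged from 93.7 to 150 CPM with a median of 103 in APC Min/+ mice, and from 96.0 to 145 CPM with a median of 103 in WT mice. The 3 highest values belonged to M10_2 (150 CPM), M17_1 (145 CPM) and M13_1 (141 CPM), and the other 9 mice did not exceed 113 CPM. Between genotypes its log2 fold change was 0.055 (SE 0.15, FDR = 0.952), and it turned to -0.16 (SE 0.12, FDR = 0.9999) without M10_2 and M13_1. Gsdma ranged from 1.395 to 2.501 CPM in APC Min/+ and from 1.76 to 2.86 CPM in WT mice, on 99 to 375 counts per mouse, with a log2 fold change of -0.13 (SE 0.18, FDR = 0.914). Markers of stratified squamous epithelium summed to 4.4 to 7.5 CPM in APC Min/+ and 4.0 to 5.7 CPM in WT mice, with Krt5 at no more than 0.199 CPM, and their part in the Gsdma level was not tested. In bulk tissue, a difference in any of these genes could come from the number of cells that express it or from the RNA per cell, which cannot be told apart.

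**Figure D2:**
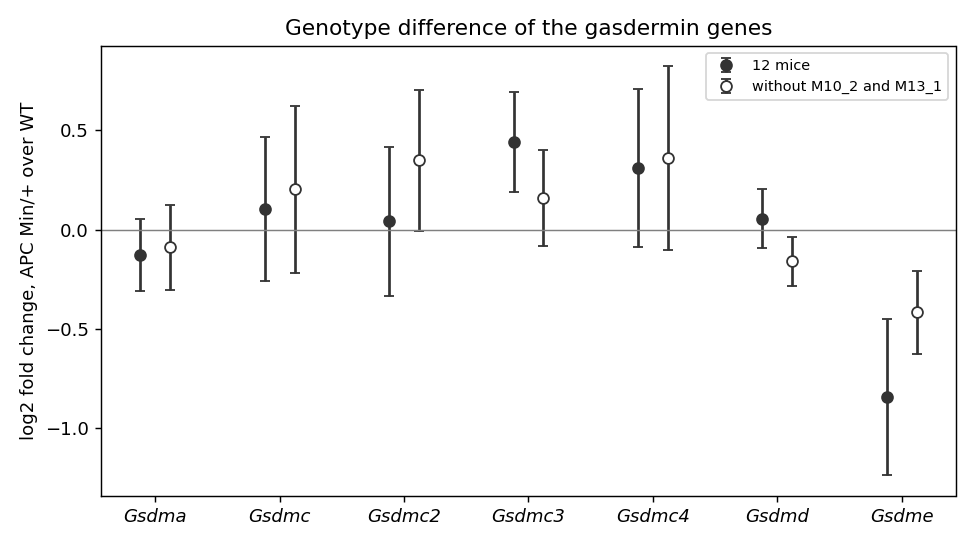
Log2 fold change of APC Min/+ over WT for each gasdermin, with bars of 1 SE, in 12 mice (filled) and without M10_2 and M13_1 (open). Gsdme is lowest at -0.84 and -0.42, and Gsdmd changes sign from 0.055 to -0.16.

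Set against Hoxb13, the 12 mice formed 2 clusters, the pair with high Hoxb13 and the 10 with almost none, so no correlation was computed over all 12. Of the 7 gasdermins, both mice of the pair exceeded all the other 10 for 1, Gsdmc3 (233 and 304 CPM against 74.6 to 199 CPM), where the background was 11.8% of genes tested. Both lay below all the others for 1, Gsdme (6.11 and 5.30 CPM against 17.8 to 47.6 CPM), where the background was 12.2%. In either direction, 2 of 7 members and 24.0% of all genes fell outside, so such a position was common in the whole table. The pair was inside the range of the others for Gsdma (1.89 and 1.91 CPM), Gsdmc (11.2 and 14.6 CPM), Gsdmc2 and Gsdmc4. For Gsdmd, M10_2 (150 CPM) lay above the 93.7 to 145 CPM of the others and M13_1 (141 CPM) within it. Both mice of the pair were APC Min/+ and there were no WT mice with high Hoxb13, so no contrast within WT was possible.

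**Figure D3:**
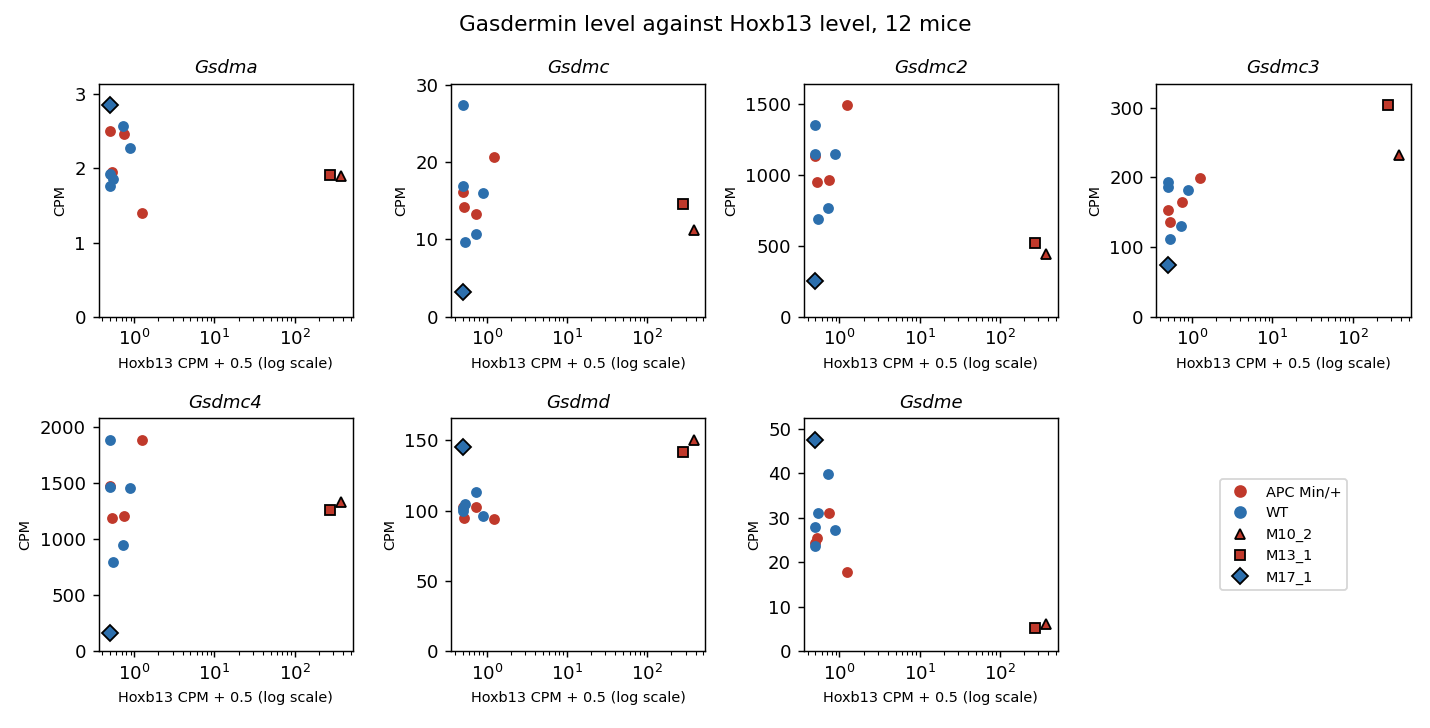
CPM of each gasdermin (linear axis) against Hoxb13 CPM plus 0.5 (log axis) in 12 mice, with colours and symbols as in the plot of CPM by gene. M10_2 and M13_1 lie alone at the right, above the other mice for Gsdmc3 and below them for Gsdme.

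Within the 10 mice with little Hoxb13, which had 0 to 145 Hoxb13 counts each, 6 had fewer than 3 counts, so that most lacked a measurable Hoxb13 level. No relation was detectable at this depth. On the scale log2(CPM + 0.5), Pearson's r was -0.34 for Gsdma, 0.26 for Gsdmc, 0.37 for Gsdmc2, 0.42 for Gsdmc3, 0.33 for Gsdmc4, -0.37 for Gsdmd and -0.39 for Gsdme. The permutation p-values were 0.223 to 0.445, or 0.551 to 0.703 after Benjamini-Hochberg adjustment over all 20310 genes compared. Spearman's rho was -0.21, -0.044, 0.17, 0.24, -0.0063, -0.39 and -0.075 in the same order, with permutation p-values of 0.258 to 0.992, or 0.475 to 0.996 adjusted. Leaving out M8_2 and M19_1, the mice farthest from the median of Hoxb13, brought r to 0.38 for Gsdma, -0.035 for Gsdmc, 0.046 for Gsdmc2, 0.084 for Gsdmc3, 0.090 for Gsdmc4, -0.041 for Gsdmd and 0.34 for Gsdme. The values thus depended on those mice. M17_1, with no Hoxb13 count, was lowest of the 10 for each Gsdmc gene and highest for Gsdma, Gsdmd and Gsdme. The correlations were not computed without it, so its part in them was not tested. Over all genes, 0 had an adjusted p under 0.05 for r, and 10.6% an unadjusted one.

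The balance within the Gsdmc cluster differed more between mice than between genotypes. The 4 genes together took 2021 to 3603 CPM in APC Min/+ mice, and 1610 to 3466 CPM in 5 WT mice and 497 CPM in M17_1. In 9 mice, 5 WT and 4 APC Min/+, the cluster had nearly 1 composition, with Gsdmc2 at 39.1 to 42.9%, Gsdmc4 at 49.7 to 54.6%, Gsdmc3 at 5.51 to 7.02% and Gsdmc at 0.562 to 0.791% of its reads. M10_2 and M13_1 departed from it with Gsdmc2 at 21.8 and 24.9%, Gsdmc4 at 66.1 and 59.9%, and Gsdmc3 at 11.5 and 14.5% of the reads. M17_1 departed in another way, with Gsdmc2 at 50.8%, Gsdmc3 at 15.0% and Gsdmc4 at 33.6%.

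As a ratio of CPM, Gsdmc3 to Gsdmc2 was 0.528 in M10_2, 0.580 in M13_1, 0.296 in M17_1 and 0.133 to 0.171 in the other 9 mice. The Gsdmc4 to Gsdmc2 ratio was 3.04, 2.40 and 0.661 in these 3 mice and 1.16 to 1.40 in the other 9. It was therefore highest in the pair and lowest in M17_1. The Gsdmd to Gsdme ratio was 24.6 in M10_2 and 26.6 in M13_1, but 3.05 in M17_1, inside the 2.83 to 5.28 of the remaining mice. These ratios were chosen after the values were seen and are descriptions. Gsdmc2 and Gsdmc3 are the pair of the cluster with the highest coding identity (97.1%), and the part of shared reads in the ratios was not tested.

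**Figure D4:**
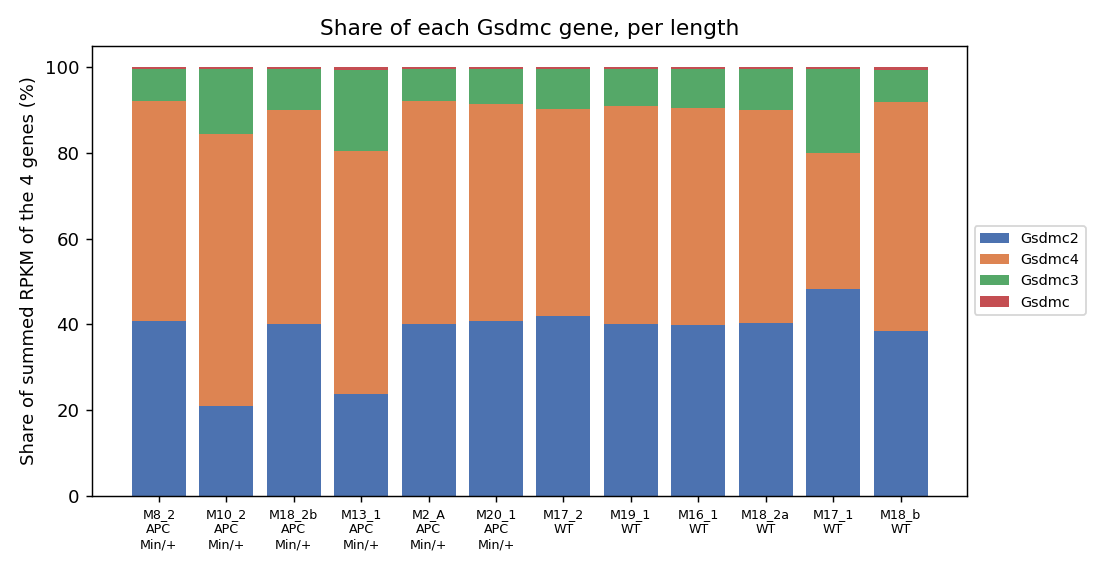
Share of each Gsdmc gene in the summed RPKM of the 4 genes (%), as stacked bars for the 6 APC Min/+ mice and then the 6 WT mice. Per length, Gsdmc2 takes 20.95% in M10_2, 23.7% in M13_1 and 48.2% in M17_1 against 38.4 to 41.9% in the other 9 mice.

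Across the 10 mice other than M10_2 and M13_1, the 4 Gsdmc genes had like patterns, with r of log2 CPM of 0.94 to 0.99 between any 2 of them. With M17_1 also left out, r was 0.86 to 0.99 over 9 mice. Gsdmd and Gsdme had an r of 0.85 with each other in the 10 mice (0.83 without M17_1), and each had a negative r with every Gsdmc gene, from -0.94 to -0.80 in 10 mice and from -0.83 to -0.53 in 9. Over all 12 mice the likeness was lower, with r of 0.35 (Gsdmc2 and Gsdmc3) to 0.96 (Gsdmc and Gsdmc4) within the cluster, -0.47 between Gsdmd and Gsdme, and -0.90 to 0.15 between either of these and the Gsdmc genes. These are descriptions of likeness among genes from the same libraries and carry no p.

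The genes whose pattern was most like that of a member were sought among 14776 genes outside the family. These had a symbol and a mean of at least 1 CPM. They were ranked by r over 12 mice and also over the 10 other than M10_2 and M13_1. M17_1 was in both sets, and its part in these r values was not tested. For Gsdmc4 the most like genes were 2210016F16Rik (r = 0.98 in 12 mice and 0.99 in 10), Chmp4b (0.98 and 0.99), Aqp8 (0.97 and 0.99), Mapkap1 (0.97 and 0.97) and Bloc1s3 (0.97 and 0.97). Spearman's rho over the 12 mice was lower, at 0.80, 0.87, 0.84, 0.72 and 0.72 in the same order. Chmp4b is a subunit of the ESCRT-III complex, which cuts and repairs membranes. Aqp8 ranged from 4.80 CPM in M17_1 to 552 CPM. For Gsdmc2 they were Itpkc (0.97 in 12 mice), 9130204K15Rik, Nudt4, Acot2 and Nuak2 (0.96), and in the 10 mice Gucd1, Rab5c and Cdc42ep5 (all 0.98).

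For Gsdme the closest gene was Pcsk1, a prohormone convertase of enteroendocrine cells, at 0.9955 in 12 mice and 0.98 in 10, with a range of 6.11 to 55.6 CPM. It was followed in the 12 mice by Fam49a, Ccdc9b, Casp2 and F2 (0.99 each, and 0.91 to 0.97 in 10 mice). In the 10 mice Anxa13 and Rnf186 (both 0.98) ranked above Pcsk1, but their r in 12 mice was 0.56 and 0.38. For Gsdmd they were 4930581F22Rik, Pla2g10, Noxo1, Pdxdc1 and Gm15848 (0.96 to 0.97 in 12 mice). Noxo1 organises an oxidase of the colonic epithelium. In the 10 mice the leading genes were Uap1, Mcoln2 and Smyd4 (all 0.97), of which Uap1 had an r of 0.014 in 12 mice. For Gsdma they were Lrmda (0.90 in 12 mice), Selenop, Slc27a1, Slc7a9 and C9orf72 (0.87), and in the 10 mice Iapp, Nedd9 and Mme (0.95 to 0.97).

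The genes that act around the gasdermins were compared from a list of 38 pyroptosis genes, of which 37 were matched by symbol and 35 were tested. By genotype, 0 of the 35 were called. At an unadjusted p under 0.05, 1 was higher in APC Min/+ mice, against 3.46% of all genes, and 1 was lower, against 1.81%. Their median log2 fold change was -0.014. The proteases Casp1 (154 to 242 CPM in APC Min/+, 161 to 286 CPM in WT) and Casp4 (19.7 to 39.0 and 20.9 to 34.8 CPM) had log2 fold changes of -0.18 (SE 0.16) and -0.027 (SE 0.17). Casp8 was below the others in the pair (95.7 and 88.4 against 100.5 to 141 CPM). Elane and Ctsg, proteases of neutrophils, reached at most 0.0673 and 0.0205 CPM and were not tested.

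Among the cytokines that pass through gasdermin pores, Il18 had the lowest p of the list. It was at 132 and 122 CPM in M10_2 and M13_1, at 19.8 to 39.7 CPM in their 4 APC Min/+ group mates and at 13.3 to 28.6 CPM in WT mice. Between genotypes, the log2 fold change was 1.51 (SE 0.46, FDR = 0.908, unadjusted p = 0.0062) in 12 mice and 0.40 (SE 0.23, FDR = 0.9999) without the pair. Il18 is also among the genes that the study picked from these libraries, so that its direction is not independent evidence. Il1b was at 0.662 to 1.33 CPM in APC Min/+ and 0.673 to 1.42 CPM in WT mice (log2 fold change -0.10, SE 0.23). Gzma, a granzyme of cytotoxic lymphocytes, had a log2 fold change of -1.18 (SE 0.52, FDR = 0.908, unadjusted p = 0.0394), or -0.79 (SE 0.49) without the pair, at levels of 0.131 to 1.999 CPM. The sensor Nlrp3 had one of 0.52 (SE 0.24, FDR = 0.908), or 0.35 (SE 0.25) without the pair, at 0.249 to 0.909 CPM.

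Of the 35 tested, both mice of the pair were above all the other 10 for 6 (Nlrp1b, Il18, Il1a, Irf2 and Gbp2 among them) and below for 8 (Nlrc4, Pycard, Casp8, Gzma, Gzmb, Il33 and Ripk3 among them), against 11.8 and 12.2% of all genes. Irf2, a transcription factor known to drive Gsdmd, was at 92.9 and 111 CPM in the pair against 33.0 to 83.0 CPM. Irf2 was lowest, at 33.0 CPM, in M17_1, where Gsdmd was at 145 CPM, and a relation of Irf2 to Gsdmd was not tested. M17_1 was the lowest mouse for 26.9% of the genes with a mean of at least 1 CPM.

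Type 2 immunity genes were examined because type 2 cytokines are known to raise Gsdmc genes. Of 15 listed, 13 were tested, 0 were called (0.0% of all genes) and 0 had an unadjusted p under 0.05 (5.27% of all genes), with a median log2 fold change of -0.13. The cytokines Il5 and Il13 were at no more than 0.0835 and 0.0221 CPM and were not tested, and Il4 did not exceed 0.149 CPM. The lowest p-values belonged to the receptor subunit Il13ra1 (log2 fold change 0.30, SE 0.17), to Stat6, the factor downstream of that receptor (-0.15, SE 0.091), and to the tuft cell channel Trpm5 (-0.39, SE 0.23), each with an FDR of 0.908. Il13ra1 was at 232 and 197 CPM in M10_2 and M13_1 and at 111 to 146 CPM in the other 10, and without the pair its log2 fold change was 0.012 (SE 0.11). Retnlb, a goblet cell product of type 2 responses, was at 2.06 and 2.81 CPM in the pair and 13.2 to 171 CPM in the rest, with M17_1 at 13.2 CPM. It was thus low in the same 3 mice in which Gsdmc2 was lowest, and a relation of Retnlb to Gsdmc2 was not tested. Clca1, another goblet cell product, went the other way, at 8932 and 4976 CPM in the pair and 1272 to 2928 CPM in the rest. Of the 13 type 2 genes tested, both mice of the pair were above all the other 10 for 2 and below for 1, against 11.8 and 12.2% of all genes.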

How the data were processed

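Per the labels and the study's methods, the authors sequenced paired 100-base reads, aligned them with STAR 2.3.0 to GRCm38.p2 and counted them on genes with featureCounts. They deposited 1 table of raw counts per mouse with a gene length in bases for each gene. The annotation release, strand setting and treatment of reads matching several genes are not given in the sources used here, nor is the shipment of each mouse. Symbols were taken from GENCODE M21 for 37607 of 38924 genes. Genotypes were compared with edgeR 4.0.16 (R 4.3.3; TMM, glmQLFit and glmQLFTest, no covariate) after removal of genes that did not reach 10 counts in 3 or more mice. Genes were called at an FDR (Benjamini-Hochberg) under 0.05 together with a 2-fold change. The standard error of a fold change was derived from its F statistic. RPKM used the deposited lengths. No 2 tables held identical values. Nothing says more than 1 library was made per mouse, so p-values measure the spread between mice.

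Relations to Hoxb13 used log2(CPM + 0.5) and two-sided permutation tests with 100000 resamples. Like-pattern genes, members and their relatives left out, were the 5 with the highest r over 12 mice and the 3 highest over 10. Beside all members and their 3 untested relatives, the genes named were the Hox13 genes, Casp1, Casp4, Casp8, Il1b and Il18, and the 3 lowest p-values of each list. Some genes of the lists are not reported here by name. Other genes were named after their values were seen. Members and lists were chosen with earlier results of these data known. The alternatives were no filter on low counts, DESeq2 size factors, DESeq2 1.42.0, edgeR's exact test and leaving out mice. The genotype fit was tried on simulated counts with a fixed dispersion and no outlying mice, and the permutation test on simulated normal values. The 3-count floor covers counting error only.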

Additional observations from a re-analysis of the deposited data

Results flagged for a closer look

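Within each genotype of 6 mice, 14 sets of values (7 genes in 2 genotypes) were examined for a mouse far from the rest, where chance would flag about 1 in 20. The gap to the nearest mouse, divided by the range of the log2 values, exceeded Dixon's critical value in 1 set. It was Gsdmc4 among the WT mice, where M17_1 was at 167 CPM with a gap of 0.645 of the range. M10_2 and M13_1 lay apart together, so that neither was far from its nearest neighbour, and they were not singled out.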

How the results depend on the processing

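The count of gasdermins called was 0 under all 18 alternatives, as were the counts for the pyroptosis and type 2 genes, and for the other gasdermin genes where these were tested. Over all genes the counts were 0 in the quasi-likelihood test, 27 with DESeq2 and 10 with the exact test. Across the alternatives the lowest FDR of any gasdermin was 0.548. Gsdme, at an unadjusted p of 0.0507 in the main test, fell under 0.05 in several alternatives. DESeq2 gave 0.0317 (FDR = 0.694) and edgeR's exact test 0.0333 (FDR = 0.856). The quasi-likelihood test gave 0.0431 without the filter (FDR = 0.725) and 0.0434 without M20_1 (FDR = 0.784), and without M18_2b as given next. Leaving out 1 mouse at a time, the log2 fold change ranged from -1.06 (without M18_2b, unadjusted p = 0.0208) to -0.65 for Gsdme, 0.28 to 0.54 for Gsdmc3, 0.078 (without M17_1) to 0.52 for Gsdmc4, -0.16 to 0.20 for Gsdmc2, -0.11 to 0.41 for Gsdmc, -0.040 to 0.15 for Gsdmd and -0.19 to -0.040 for Gsdma. Signs turned for Gsdmc2 without M8_2 (-0.15), M2_A (-0.020), M17_2 (-0.024), M18_2a (-0.011) or M17_1 (-0.16), for Gsdmc without M8_2 (-0.010) or M17_1 (-0.11), and for Gsdmd without M10_2 (-0.040) or M13_1 (-0.015). Without M10_2 and M13_1 together Gsdmd was at -0.16. Without these 2 and M17_1, an alternative chosen after seeing the data, Gsdmc was at -0.0060, Gsdmd at -0.065, Gsdmc3 at 0.025, Gsdme at -0.28, Gsdmc4 at 0.13, Gsdmc2 at 0.15 and Gsdma at -0.0024. None of these values was called on either side. Without the 2 mice farthest from the median of Hoxb13, r changed sign for Gsdma (0.38), Gsdmc (-0.035) and Gsdme (0.34), while pseudocounts of 0.1 and 2 changed no sign. No paired analysis was possible because the labels do not say what the numbers and suffixes in the mouse names mark, and 18 is the single leading number found in both genotypes. The SEs of 0.36 to 0.40 for Gsdmc, Gsdmc2, Gsdmc4 and Gsdme, each on 346 or more counts per mouse, mean that a log2 fold change of 1 would be under 3 SEs for these genes.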
